A study of Mus musculus with 6 samples.

Results

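This account covers the E2A-bound regions that lie between genes and far from any start site in mouse neural stem cells. They are the peaks of wild-type (wt) replicate 3 that the authors annotated as distal intergenic, that lie more than 50 kb from the annotated transcription start site and that overlap a peak of wt replicate 1 or 2 by at least 1 bp. There were 2257 of them, out of 12298 wt replicate 3 peaks shared with another wt list and 24194 wt replicate 3 peaks in all. For comparison, the shared peaks also held 2127 intergenic regions within 50 kb of a start site, 2745 promoter regions, 4319 intronic regions and 850 in exons, UTRs or just downstream of genes.

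The series mapped E2A by chromatin immunoprecipitation and sequencing in 1 library of E12 knockout (E12KO) cells, 1 of E47 knockout (E47KO) cells and 3 of wt cells, beside 1 wt input library that was not analysed here. All were neural stem cells of the C57BL/6J strain from embryonic day E12.5, expanded in medium with 20 ng/ml FGF-2 and 20 ng/ml EGF, fixed with EGS and formaldehyde and precipitated with an antibody against E2A. It is not stated in the labels if the 3 wt libraries stem from different embryos or cultures, how the knockout alleles were made, or if the antibody binds E12 and E47 equally. Each library is represented by its own peak list. The lists held 25229 peaks in E12KO, 22176 in E47KO, and 6814, 12772 and 24194 in wt replicates 1, 2 and 3. The lists give no read totals, so the depth behind them is unknown, and peak positions alone cannot check the labelled cell type against expressed markers.

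E2A is the shared name for E12 and E47, basic helix-loop-helix (bHLH) proteins that the gene Tcf3 makes by alternative splicing. Both bind E-boxes, short DNA motifs of the form CANNTG, as homodimers or with tissue-specific bHLH partners, and Id proteins bind them in a form that cannot hold DNA. Genes that direct development are often surrounded by long stretches without other genes, called gene deserts, in which enhancers can act on a start site from far away.

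The sequence of the far regions themselves was not analysed here. Shown instead are the promoters of 3 genes that bound gene-poor intervals described in the following paragraphs, each from 250 bases before to 50 bases after the start site (RefSeq, GRCm38.p6), with every CANNTG in capitals. Sox2 and Sox11 encode HMG-box factors of neural progenitors and of early neurons, and Tle3 encodes a Groucho-type corepressor. They were chosen after their values were seen.
Sox2: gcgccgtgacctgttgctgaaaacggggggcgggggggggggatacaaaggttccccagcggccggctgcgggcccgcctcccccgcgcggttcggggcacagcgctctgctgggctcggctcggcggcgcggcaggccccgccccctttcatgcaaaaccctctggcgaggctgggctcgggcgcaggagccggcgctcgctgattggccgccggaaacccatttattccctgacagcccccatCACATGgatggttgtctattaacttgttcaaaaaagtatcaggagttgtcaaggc
Sox11: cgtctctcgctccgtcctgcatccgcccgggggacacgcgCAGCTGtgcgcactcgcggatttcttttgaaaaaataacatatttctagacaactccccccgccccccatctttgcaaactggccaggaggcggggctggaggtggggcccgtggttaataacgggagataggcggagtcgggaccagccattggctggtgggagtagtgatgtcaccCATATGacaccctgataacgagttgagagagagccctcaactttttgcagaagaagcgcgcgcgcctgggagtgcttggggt
Tle3: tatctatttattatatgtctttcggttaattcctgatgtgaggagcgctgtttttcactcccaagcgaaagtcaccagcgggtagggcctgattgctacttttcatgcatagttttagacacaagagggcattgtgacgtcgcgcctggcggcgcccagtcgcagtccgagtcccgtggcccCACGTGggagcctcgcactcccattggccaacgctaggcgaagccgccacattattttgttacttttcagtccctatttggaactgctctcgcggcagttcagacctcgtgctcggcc

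The Sox2 promoter held 1 such match, CACATG, 5 bases before the start site. Sox11 held CAGCTG 210 bases and CATATG 32 bases before it, and Tle3 held CACGTG 68 bases before it. Of 32851 mouse promoter windows of the same length, 72.3% held a CANNTG, 16.3% a CAGCTG, 7.15% a CACGTG, 3.92% a CATATG and 14.2% a CACATG on either strand, so matches of this kind are common. E2A peaks lay over the Sox11 start site in E12KO, E47KO and wt replicates 2 and 3, and over the Tle3 start site in all 5 lists. Over the Sox2 start site the lists held a peak in E12KO (chr3:34546830-34549132, mm9), in E47KO (chr3:34546857-34548961) and in wt replicate 3 (chr3:34546883-34549106), with a wt replicate 2 peak ending 245 bp upstream and none in wt replicate 1.

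Far intergenic regions were almost all present in both knockouts. A peak overlapped 2193 of the 2257 regions in E12KO (97.2%, 95% Wilson interval 96.4 to 97.8) and 2127 in E47KO (94.2%, interval 93.2 to 95.1). Both knockouts had a peak at 2097 regions (92.9%), and 34 regions (1.51%) had none in either. No E12KO peak was found at 64 regions (2.84%), against 3.27% of all shared wt replicate 3 peaks, and no E47KO peak at 130 (5.76%), against 6.4% of all. For regions missing from both knockouts the share over all shared peaks was 1.79%. That count of 34 dropped to 17 when wt replicate 1 was left out, to 20 when replicate 2 was and to 5 when replicate 3 was. The far regions were therefore present in the knockouts about as often as E2A regions of the other classes.

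In E12KO the shares of the other classes ran close together, at 96.8% of intergenic regions within 50 kb, 96.7% of promoter regions and 96.6% of intronic regions. In E47KO they were 93.3%, 92.4% and 94.2% in the same order. The interval of the far regions in E47KO overlapped those of the near intergenic and intronic classes and met that of promoters, 91.3 to 93.3%, only at its lower edge. Each knockout has 1 library, so no test between genotypes was possible, and the intervals cover counting error only.

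**Figure D1:**
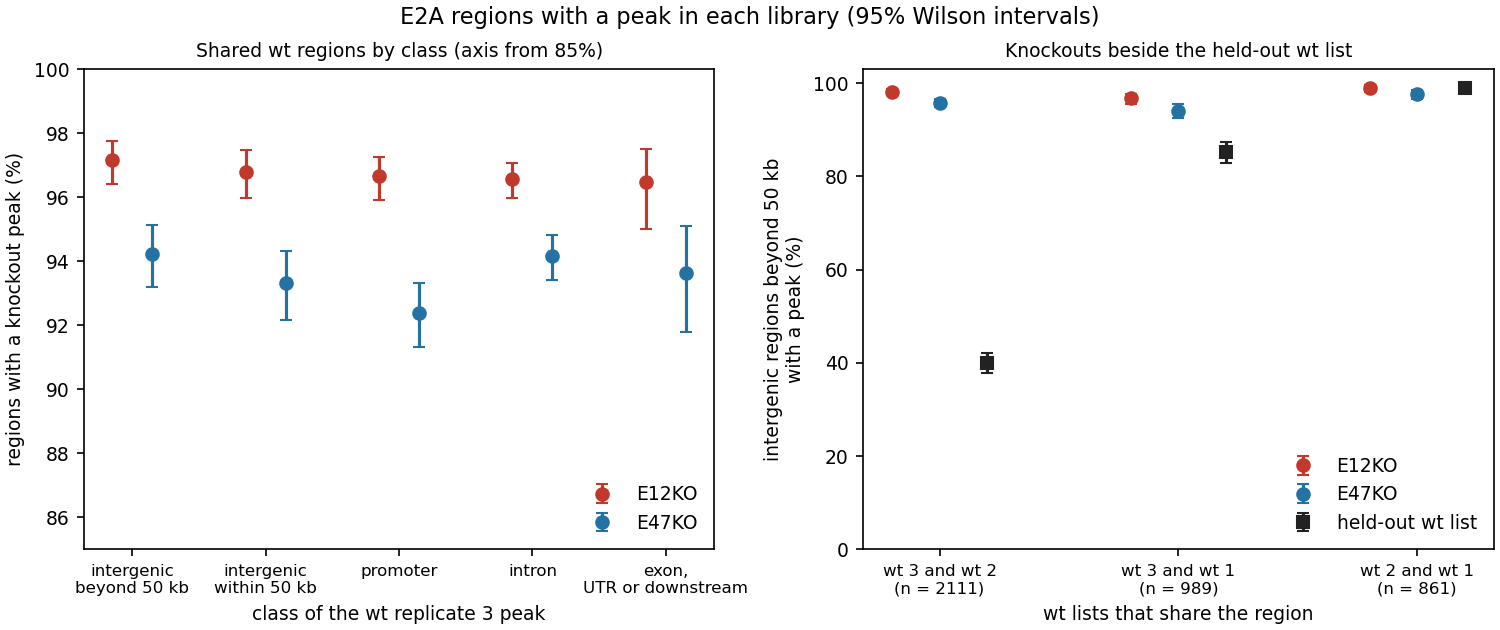
Left, share of shared wt regions with an E12KO or E47KO peak, by class, on an axis that starts at 85%. Right, share of intergenic regions beyond 50 kb, chosen from each pair of wt lists, with a peak in E12KO, in E47KO and in the wt list not used to choose them. Bars are 95% Wilson intervals. For regions of wt replicates 3 and 2, the knockouts stand at 98.2% and 95.8% and wt replicate 1 at 39.9%.

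The wt lists themselves gave a wider range than the knockouts. Of the 2111 far regions shared by wt replicates 3 and 2, 98.2% had a peak in E12KO and 95.8% in E47KO, while the third wt list, replicate 1, held 39.9%. Of the 989 shared by wt replicates 3 and 1, 96.9% had a peak in E12KO, 94.1% in E47KO and 85.2% in wt replicate 2. When regions were taken from wt replicates 2 and 1 by the annotation of replicate 2, 861 were found, with 99.1% in E12KO, 97.8% in E47KO and 99.1% in wt replicate 3. These shares ran in the order of list length, in which wt replicate 1 is the shortest and E12KO the longest. Of the 843 far regions in all 3 wt lists, 838 (99.4%) had an E12KO peak and 827 (98.1%) an E47KO peak, against 99.7% and 98.5% of the other classes chosen in this way. The number of far regions rests on the lists used: without wt replicate 2 there were 989, and without wt replicate 3 there were 861.

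In wt replicate 1, the only list with deposited scores, far regions had a median enrichment close to that of near ones and above that of promoters. The 989 far regions with a peak there had a median fold enrichment of 8.20 (the authors' value, from 2.41 to 73.2), against 8.24 in intergenic regions within 50 kb, 6.98 at promoters and 8.04 in introns. Their median −log10 q was 16.1, against 16.3 in near intergenic regions, 11.9 at promoters and 15.2 in introns. In wt replicate 3 the far regions were 632 bp wide at the median, against 669 bp for near intergenic, 886 bp for promoter and 640 bp for intronic regions.

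**Figure D2:**
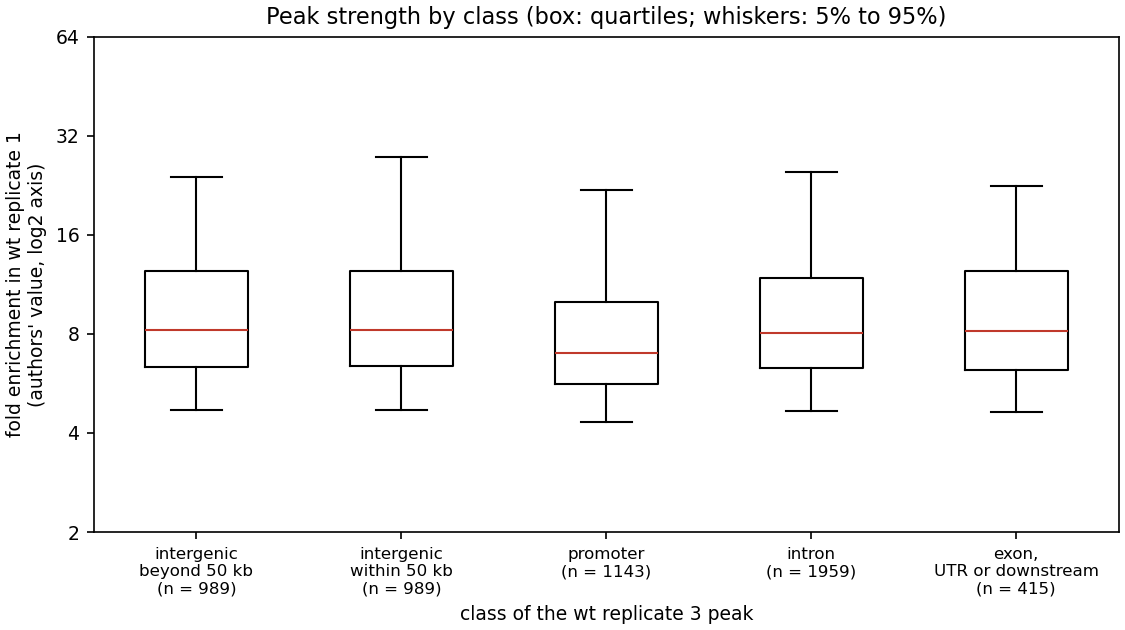
Fold enrichment of the wt replicate 1 peak (the authors' value, log2 axis) by class of the wt replicate 3 peak. Boxes give the quartiles and whiskers run from 5% to 95% of regions. The medians are 8.20 beyond 50 kb, 8.24 within 50 kb and 6.98 at promoters.

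Among far regions with a wt replicate 1 peak, the weaker ones were missing from other lists more often. Among the 330 far regions with the highest −log10 q in wt replicate 1 (25.5 to 381), 99.7% had an E12KO peak, 98.2% an E47KO peak and 95.5% a wt replicate 2 peak. Among the 329 with the lowest (2.065 to 11.7), the shares were 93.9% in E12KO, 90.6% in E47KO and 76.0% in wt replicate 2. Both knockouts thus held more of the weak regions than the wt list did. The 1268 far regions without a wt replicate 1 peak, all in wt replicate 2 by the rule, had no score. Of these, 97.4% had an E12KO peak and 94.3% an E47KO peak, more than in the lowest group. Regions with peaks in both knockouts had a median width of 655 bp, against 401 bp for those missing in E12KO only, 413 bp for those missing in E47KO only and 320 bp for those missing in both.

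The strongest far region lay 51.8 kb from Rplp1 and 443 kb past Tle3 (chr9:61709457-61710544, mm9). Its wt replicate 1 peak had a 69.0-fold enrichment and a −log10 q of 381, and a peak was listed in both knockouts and in all wt lists. The highest fold, 73.2, was found between Eipr1 and Myt1l, a zinc finger factor of neurons (chr12:29739194-29740145). Next by −log10 q came regions 414 kb before Zfp462 (57.4-fold), between the cadherin genes Cdh11 and Cdh5 (60.5-fold) and 480 kb from Nrsn1 (40.2-fold). The list of 10 went on with regions near Sema6d, a semaphorin of axon guidance (41.7-fold), Sipa1l2 (47.6-fold), between Tut7 and Gas1, a Hedgehog coreceptor gene (45.8-fold), and between Zeb1 and Arhgap12 (47.6-fold). All of these were listed in both knockouts and in all 3 wt lists. The last of the 10, 150 kb from Gm14393 on chromosome 2 (48.4-fold), had a peak in E12KO and wt replicates 1 and 3 but none in E47KO or wt replicate 2.

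Few of the far regions missing from a knockout were in all 3 wt lists, which held 37.4% of all far regions. Regions missing in E12KO only made up 1.33% of far regions, against 1.48% of all shared wt replicate 3 peaks. For E47KO only the shares were 4.25% and 4.61%. Of the 34 missing from both knockouts, 3 were in all wt lists. These lay 73.7 kb before Arhgap5 (11.04-fold, chr12:53530844-53531294), 50.8 kb before Lrrc8d (8.19-fold) and 53.5 kb before Lingo1 (5.54-fold). Of the 30 missing in E12KO only (11 without wt replicate 2 and 3 without wt replicate 3), 2 were in all wt lists, one near Afap1 (9.26-fold) and one near Nuak1 (6.05-fold). Of the 96 missing in E47KO only (38 without wt replicate 2 and 14 without wt replicate 3), 13 were in all wt lists. By −log10 q, the first 4 of these lay 54.4 kb before Psmd14 (11.9-fold), 518 kb from Etv1 (9.52-fold), 245 kb from Arl6ip6 (7.59-fold) and 619 kb before Vmn2r121 (7.83-fold). A weaker one lay 264 kb before Sall1 (6.76-fold). Etv1 encodes an ETS factor and Sall1 a zinc finger factor. A further region near Lpin1, in wt replicates 1 and 3 only, was missing in E12KO despite a 17.5-fold enrichment.

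The regions reached far into gene deserts. The median distance to the annotated start site was 137 kb, with quartiles of 80.6 and 253 kb. By distance, 799 regions lay at 50 to 100 kb, 683 at 100 to 200 kb, 627 at 200 to 500 kb, 129 at 500 to 1000 kb and 19 beyond 1000 kb. Slightly more lay upstream of the start site (1188, 52.6%) than downstream of it (1069). Presence in the knockouts showed no steady trend with distance, from 97.3% at 50 to 100 kb to 94.7% beyond 1000 kb in E12KO and from 94.2% to 94.7% over the same bins in E47KO, with 91.5% at 500 to 1000 kb. The farthest region lay 2083 kb before Celf4, an RNA-binding protein gene of neurons (chr18:27995205-27995682). It was listed in both knockouts and in wt replicates 2 and 3. Another followed in the same desert at 1829 kb, and the next lay 1640 kb from Lrrtm1, 1623 kb from Map3k7 and 1595 kb from Efna5, an ephrin gene. At the limit itself, the nearest regions above it lay 50.14 to 50.27 kb from Btg3, Slc22a16, Cdh4, Rc3h1 and AU041133, and the nearest below it 49.86 to 49.99 kb from Pcnx, Col5a1, Sorl1, Fundc1 and Ppp1r15b. All 10 were listed in both knockouts. Distance is counted to a start site, so 277 of 1999 far regions (13.9%) still lay within 50 kb of a gene body, and 45 within 10 kb.

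A few gene-poor intervals held many far regions. An interval here is the stretch between neighbouring protein-coding genes, and 2244 of the regions could be placed in 1023 of them. Of these intervals 534 held 1 region, 101 held at least 5 and 12 held at least 10. The 101 held 713 regions, 31.8% of those placed. Lengths in mm9 were known for 878 intervals with 1999 regions, and the 332 gene deserts of at least 500 kb held 999 of these (49.97%). The median desert with any far region held 2, or 1.94 per Mb.

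**Figure D3:**
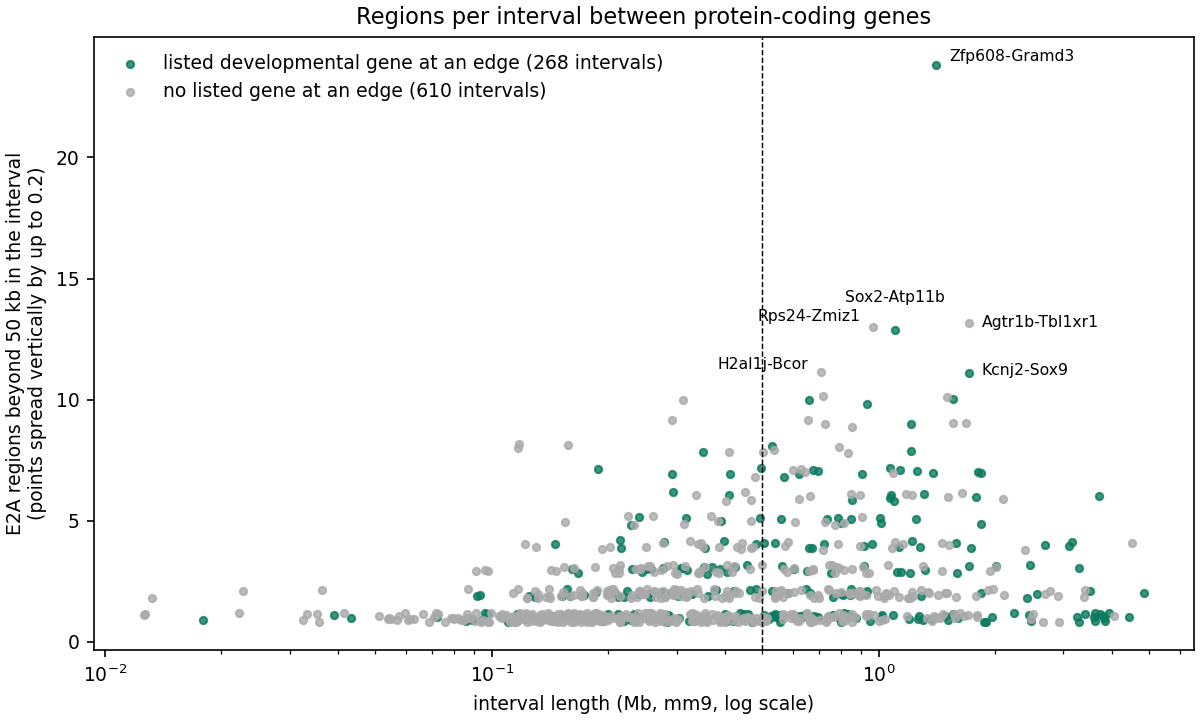
Each point is 1 of the 878 intervals of known length, with its length (Mb, log scale) and the number of E2A regions beyond 50 kb in it. Green marks intervals with a listed developmental gene at an edge and the dashed line marks 500 kb. The interval between Zfp608 and Gramd3 stands alone with 24 regions, above 13 in the next 3.

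The fullest interval was the 1408 kb between Zfp608, a zinc finger gene, and Gramd3 on chromosome 18, with 24 far regions or 17.1 per Mb. The count was 11 without wt replicate 2 or without wt replicate 3, and with genes of any class as edges no interval held more than 15. Peak counts per list, here and in the intervals that follow, take every distal intergenic peak at any distance from a start site. The interval between Zfp608 and Gramd3 held 29 in E12KO, 26 in E47KO, and 12, 25 and 29 in wt replicates 1, 2 and 3. Of its 24 regions, 24 had an E12KO peak and 23 an E47KO peak. The first 10 lay 109 to 266 kb from Zfp608, and the strongest, 18.0-fold, lay 583 kb before Gramd3 (chr18:55975394-55976612). The next interval on the other side of Zfp608, towards Csnk1g3, held 10 more, so that 34 far regions had Zfp608 as a neighbour. One region of the main interval, 701 kb from Zfp608, was absent from E47KO and from wt replicate 2.

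Between Sox2 and Atp11b (1102 kb, chromosome 3) lay 13 far regions, and all 13 were present in E12KO, E47KO and wt replicate 2. Without wt replicate 2 or without wt replicate 3 there were 5. The interval held 16 peaks in E12KO, 15 in E47KO, and 6, 13 and 15 in wt replicates 1, 2 and 3. The nearest to Sox2 lay 297 kb past it, and the strongest by fold lay at 438 kb (12.51-fold, chr3:34989073-34989972) beside another at 500 kb (11.99-fold, chr3:35051041-35051891). No far region was found in the stretch from Sox2 to the first of them, where E47KO and wt replicate 1 each had 1 peak at a place of its own. On its other side Sox2 had 7 further regions as a neighbour, 20 in all.

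Between Kcnj2 and Sox9, a factor of neural stem cells and glia, 11 far regions were spread over 1705 kb of chromosome 11 (5 without wt replicate 2 or without wt replicate 3). All 11 were listed in both knockouts and in wt replicate 2. The interval held 14 peaks in E12KO, 15 in E47KO, and 6, 11 and 14 in wt replicates 1, 2 and 3. The strongest lay 963 kb before Sox9 and 741 kb from Kcnj2 (32.8-fold, chr11:111679303-111680398). A close pair lay nearest to Sox9, at 280 and 275 kb (23.8-fold for the second, chr11:112367973-112368652).

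Between Rps24 and Zmiz1, a coactivator gene, 963 kb of chromosome 14 held 13 far regions (8 without wt replicate 2 or without wt replicate 3), 12 with a peak in E12KO and the same number in E47KO. It held 19 peaks in E12KO, 20 in E47KO, and 8, 13 and 19 in wt replicates 1, 2 and 3. Its strongest region, 27.4-fold, lay 82.0 kb past Rps24 (chr14:25397409-25399148). One region at 367 kb had no peak in either knockout or in wt replicate 1.

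In the 4 other intervals with the highest counts, presence in the knockouts varied. Between Agtr1b and Tbl1xr1 (13 regions), 11 were present in E12KO and 11 in E47KO, and the folds did not exceed 8.59. Between Auts2, a gene of cortical development, and Castor2 (10 regions), 9 were present in E12KO and 8 in E47KO. Between Nrsn1 and Hdgfl1 (10 regions) the counts were 10 in E12KO and 9 in E47KO, and between H2al1j and Bcor on the X chromosome (11 regions) all were present in both. In each of the 8 intervals wt replicate 1 held the fewest peaks of the 5 lists.

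**Figure D4:**
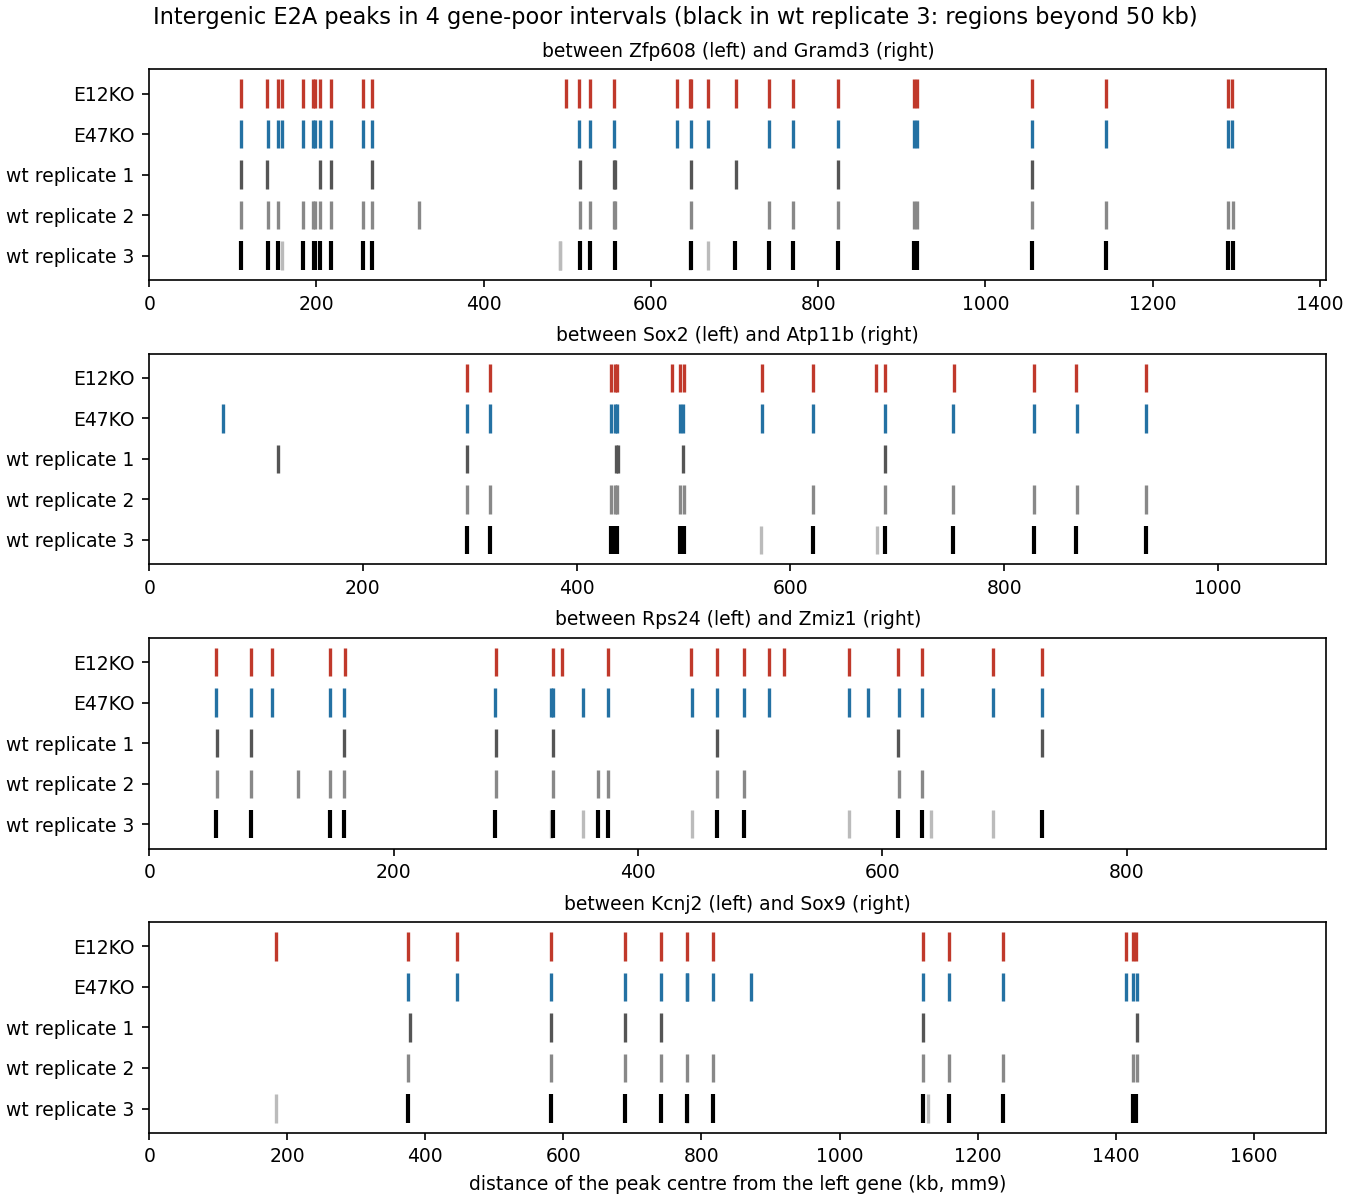
Distal intergenic peaks in E12KO, E47KO and wt replicates 1 to 3 across 4 intervals, by distance of the peak centre from the left gene (kb). Black marks in the wt replicate 3 row are the shared regions beyond 50 kb, grey marks there are peaks in no other wt list. Most black marks have a mark above them in both knockout rows, as the 13 regions between Sox2 and Atp11b all do.

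Far regions also came in tight groups. Of the 2257, 642 (28.4%) had another within 20 kb, and linking neighbours at that distance gave 267 groups, 29 of them with at least 4 regions. The following groups were picked for their size after the values were seen. A group of 6 lay between Hes1, the Notch-driven bHLH repressor, and Cpn2 (chr16:30155403-30194392), with 6 in E12KO, 6 in E47KO and 5 in each of wt replicates 1 and 2. A group of 7 lay between Cibar2 and Gse1 (chr8:122788409-122847614), all in both knockouts and 6 in wt replicate 1. That interval held 10 far regions in 311 kb, or 32.1 per Mb. Another group of 7, between Sulf2 and Prex1, had 5 in wt replicate 1, and another group of 6, between Klf7 and Creb1, had 2. All regions of both were in both knockouts. The 2 groups of 8 had few or no regions in wt replicate 1. Between Gas8 and Rhou (chr8:126096721-126127493) all 8 were listed in E12KO, E47KO and wt replicate 2 and none in wt replicate 1. That interval of 117 kb held 36 distal intergenic peaks at any distance in E12KO and 42 in E47KO. In wt replicates 1, 2 and 3 it held 0, 38 and 26. Between Lrrc74a and Irf2bpl (chr12:88127059-88168310) 1 of the 8 was in wt replicate 1. The wt replicate 1 list was made under another false discovery rate label than the other lists, and the part this plays in such counts was not tested. The labels do not say if regions were filtered out of any list, so the 0 between Gas8 and Rhou is a count of listed peaks only.

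Developmental genes bounded many of the intervals. A gene from 14 lists of developmental regulators, signalling and neural genes (713 genes in all) stood at an edge for 792 of 2244 far regions (35.3%, interval 33.3 to 37.3), against 346 of 2101 intergenic regions within 50 kb (16.5%, interval 14.9 to 18.1). Over all intergenic shared peaks the share was 26.2%, and over all 19089 RefSeq intervals 6.69%. Counted once per interval, the shares were 29.2% of 1023 far-region intervals and 15.3% of 1534 for the near regions. Regions between the same 2 genes are not independent, so the Wilson intervals of the shares by region are too narrow. Among intervals with at least 5 far regions 47.5% had such a gene, against 29.9% of those with 2 to 4 and 25.3% of those with 1. Of the 332 deserts with a far region, 144 (43.4%) had such a gene. In these deserts the median was 1.91 regions per Mb beside a listed gene and 1.94 elsewhere, with a median of 2 regions per desert in both groups. Deserts without a far region were not counted, so these medians cannot tell if density differs by neighbour. A region with listed genes at both edges counts under both, as between Zeb2 and Acvr2a, Meis1 and Spred2, or Tle3 and Rplp1. The lists were written with earlier results known, intervals were not matched for length, and by the authors' nearest gene alone the share of far regions was 17.7%. Counts per gene given in the following paragraphs are also by edge, and many of those regions have another annotated nearest gene. The edge gene was the nearest for 3 of 13 regions at Hes1, 2 of 14 at Sox9 and 0 of 7 at Dll1. It was the nearest for 23 of 34 at Zfp608 and 8 of 12 at Sox11.

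**Figure D5:**
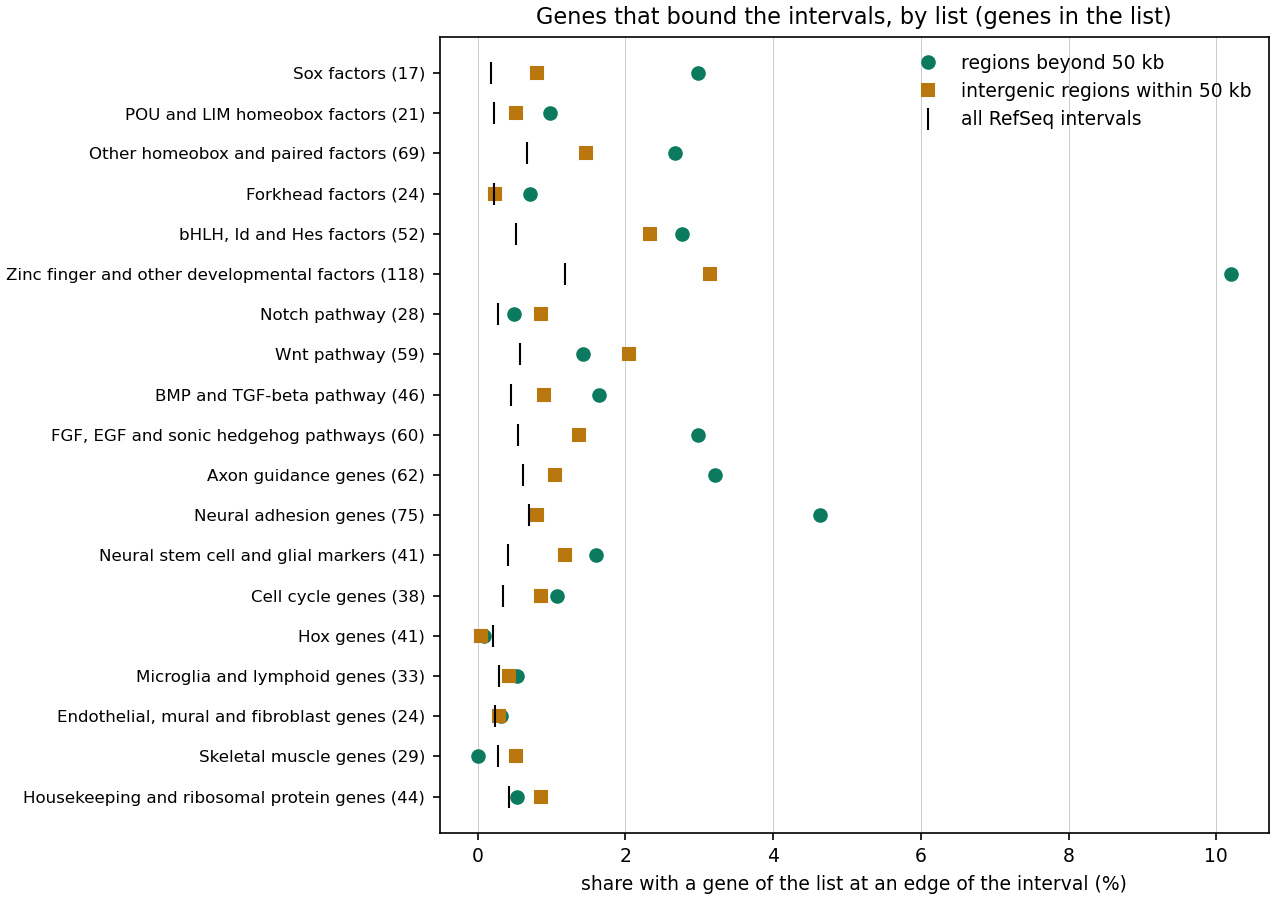
For each gene list (number of genes in brackets), the share of E2A regions beyond 50 kb (circles), of intergenic regions within 50 kb (squares) and of all RefSeq intervals (ticks) with a gene of the list at an edge. Zinc finger and other developmental factors stand at 10.2% beyond 50 kb against 3.14% within 50 kb, and Notch and Wnt genes run the other way.

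Sox factors had 10 of 17 genes at an edge, with 67 far regions, and all 67 were present in both knockouts. After Sox2 (20 regions) and Sox9 (14) came Sox11 with 12 and Sox6, a factor of glial and neuronal subtypes, with 7. The strongest beside Sox11 lay 233 kb before it (33.5-fold, chr12:28260298-28261532). Their share was 2.99% of far regions, against 0.809% of near intergenic ones. Of the 10 edge genes, 7 also had a shared promoter peak.

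Zinc finger and other developmental factors made the largest group, with 55 of 118 genes and 229 far regions (10.2%, against 3.14% of near ones), 224 of them in E12KO and 217 in E47KO. Zfp608 (34 regions), Klf6 (14), Tle3 (12) and Nfib (11), a factor of gliogenesis, had the most. All 4 had a promoter peak in both knockouts and in at least wt replicates 2 and 3. The strongest far region beside Nfib lay 562 kb from it and 284 kb from Mpdz (29.7-fold), and that beside Klf6 reached 7.48-fold.

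Homeobox, POU and forkhead factors had fewer regions per edge gene than Sox factors. POU and LIM homeobox factors had 22 regions at 10 of 21 genes, 21 in E12KO and 21 in E47KO, led by Pou3f3 (7), Pou3f1 (4) and Pou3f2 (3), factors of cortical progenitors and neurons. Of the 2 regions beside Isl1, a LIM factor of motor neurons, the one with a wt replicate 1 peak (7.11-fold) was absent from both knockouts. Other homeobox and paired factors had 60 regions at 26 of 69 genes, 60 in E12KO and 54 in E47KO. Among them were Meis1 (9), Zeb2 (6) and Zeb1 (5), and of the 6 beside Zeb2, 4 had an E47KO peak. Forkhead factors had 16 regions at 7 of 24 genes, 16 in E12KO and 15 in E47KO, among them Foxn3 (4), Foxn2 (3) and Foxo3 (3), and the strongest beside Foxn3 reached 24.2-fold. Hox genes, which sit in compact clusters, had 2 regions at 2 of 41 genes.

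The bHLH, Id and Hes group held E2A's own partners and antagonists, with 62 regions at 16 of 52 genes, 58 in E12KO and 60 in E47KO. Hes1 had 13 regions, all in both knockouts, the strongest 117 kb from it and 70.9 kb from Cpn2 (33.9-fold, chr16:30184549-30185554). Mycn, a driver of progenitor growth, had 8, the strongest of them 58.0 kb from it (17.6-fold). The Id genes, whose proteins block E proteins, followed with 8 regions beside Id2 (7 in E12KO and 7 in E47KO) and 7 beside Id4 (all in both). The strongest lay 972 kb from Id2 (13.3-fold) and 924 kb from Id4 (28.8-fold). Both were nearer to the other edge gene, 238 kb from Rnf144a and 87.9 kb from Rnf144b. The list's share, 2.76% of far regions, was near that of near intergenic regions, 2.33%.

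Signalling genes varied by pathway. The Notch list had 3 of 28 genes at an edge and 11 regions, 0.490% of far regions against 0.857% of near ones. These were the ligand Dll1 (7 regions, 7 in E12KO and 6 in E47KO), the ligand Jag1 (3) and the protease Adam10 (1). The Wnt list, with 32 regions at 15 of 59 genes (31 in E12KO and 28 in E47KO), was likewise at 1.43% of far and 2.05% of near regions, led by Apc (4), then Ctnnb1, Wnt7b and Tcf7l2 (3 each). Of the 3 beside Ctnnb1, which encodes β-catenin, 2 were present in E12KO and 2 in E47KO. BMP and TGF-β genes had 37 regions at 16 of 46 genes, all 37 in E12KO and 34 in E47KO, with the receptor genes Acvr2a (6) and Tgfbr2 (4) among the leaders. The 6 beside Acvr2a are the same 6 as beside Zeb2, and the strongest of them lay 659 kb from Zeb2 and 3037 kb from Acvr2a. FGF, EGF and sonic hedgehog genes had 67 regions at 18 of 60 genes (2.99%, against 1.38% of near ones), with 65 in E12KO and 63 in E47KO. Gas1 had 11, all in both knockouts, Fgfr2 had 10, and the Ras pathway inhibitors Spred2 and Spred1 had 8 and 5.

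Genes of neuronal wiring were well represented. Neural adhesion genes had 104 regions at 47 of 75 genes, 4.64% of far regions against 0.809% of near ones, with 102 in E12KO and 96 in E47KO. Ncam1 (7), Cadm1 (6), Cntn3 (5) and Lsamp (5) had the most, and all of those were in both knockouts. The strongest, 34.5-fold, lay 123 kb before Cadm1 (chr9:47214709-47215902). Axon guidance genes had 72 regions at 26 of 62 genes (3.21%, against 1.05%), 68 of them in E12KO and 68 in E47KO, with 7 each beside the repulsive cue Rgma and the ephrin receptor Epha4, and 6 each beside Plxna2 and Ephb1. Neural stem cell and glial markers had 36 regions at 10 of 41 genes, 34 of them in E12KO and 30 in E47KO with 2 in neither, led by Auts2 (10), Tnc (6), Tox3 (5) and the glial glutamate transporter gene Slc1a3 (3).

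The lists of other cell types and of general functions gave 24 regions or fewer each, as did the Notch, forkhead, Hox, and POU and LIM lists among the developmental ones. Skeletal muscle genes had none at an edge for 29 genes, endothelial, mural and fibroblast genes had 7 regions at 3 of 24 genes, and microglia and lymphoid genes had 12 at 3 of 33. Cell cycle genes had 24 at 7 of 38, with 9 beside Gadd45g and 5 beside Ccnd1, which encodes cyclin D1, and all 24 were in both knockouts. Housekeeping and ribosomal genes had 12 at 2 of 44, 7 of them beside Rplp1. The share of far regions beside a list was at most 0.535% for the muscle, vascular, immune and housekeeping lists and 1.07% for the cell cycle list. Among near intergenic regions the shares were 0.524%, 0.286%, 0.428%, 0.857% and 0.857% in the same order. Over all RefSeq intervals they were 0.272%, 0.236%, 0.293%, 0.43% and 0.34%. The cell cycle, immune and vascular lists thus had a higher share of far regions than of near ones or of RefSeq intervals. For the vascular list the share of far regions was 0.312%. These shares rest on 24, 12 and 7 far regions.

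Genes that bounded far regions also had E2A at their own promoters more often. A promoter peak shared by wt replicate 3 and another wt list was found at 391 of 1846 edge genes (21.2%), against 2122 of 19181 other protein-coding genes (11.1%). For the 194 genes that bounded intervals with at least 5 far regions it was 71 (36.6%). Hes1, Tle3, Dll1, Gas1, Cadm1, Klf6, Zfp608, Spred2 and Gadd45g were among the genes with a promoter peak in all 5 lists, and Acvr2a, Fstl4, Cntn3, Jag1 and Epha4 among those with none in any list.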

How the data were processed

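E2A ChIP-seq peak lists of 5 mouse neural stem cell libraries were used: E12KO, E47KO and wt replicates 1 to 3. The tools named in the submitters' processing notes are MACS2 2.1.0, BWA 0.7.13 and Picard 1.119, with build mm9. How they were set is not given in the sources used here. Peaks were deposited as 1 list per library, with the annotated feature and the signed distance to a start site. Per the file headers, the deposited table of wt replicate 1 alone holds the pileup signal (coverage height), the −log10 p and −log10 q and the fold enrichment (a ratio over background) of each peak. These scores are the authors' and only describe or rank peaks.

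Computed here, with Python 3.11.15, pandas 2.3.3 and numpy 2.4.6, were overlaps of at least 1 bp, shares with 95% Wilson intervals and regions per interval. The scripts were checked on simulated peaks. Intervals lie between neighbouring protein-coding genes of RefSeq (GRCm38.p6, used for names, gene order and the printed sequences), and their lengths come from gene positions in the deposited mm9 tables. For 7 regions the gene orders conflicted and for 6 the gene was not in that table, and these were left out of intervals.

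The members and the 19 gene lists were chosen with earlier results of these data known. Named were the 10 strongest regions by wt replicate 1 −log10 q, the 8 intervals with the most regions (places 7 and 8 went to the longest of 6 tied at 10), the 5 farthest regions, up to 8 missing from each or both knockouts, up to 4 edge genes per list and the 5 peaks on each side of 50 kb. Values of a few genes that this rule names are left out. Alternatives tried were the overlap rule, the distance limit, a stricter q, other interval edges, the nearest gene only, 1 region per interval and leaving out each wt list. Genotypes were not tested against each other, as 1 library stands for each knockout.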

Additional observations from a re-analysis of the deposited data

How the results depend on the processing

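When a peak in both other wt lists was required, 843 regions in 498 intervals were left, with at most 10 in 1 interval. Of these, 99.41% had an E12KO peak, 98.1% an E47KO peak and 97.86% both. Of the rest, 2 lacked an E12KO peak alone, 13 an E47KO peak alone and 3 lacked both, and 40.76% had a listed developmental gene at an edge. With a wt replicate 1 −log10 q of at least 10, the values were 733 regions, 449 intervals, at most 9 in 1 interval, 97.95% in E12KO, 95.63% in E47KO, 95.09% in both, 4 missing from E12KO alone, 21 from E47KO alone and 11 from both, and 39.29% beside a listed gene. A limit of 25 kb gave 52 regions missing from both knockouts and 30.93% beside a listed gene. A limit of 100 kb gave 1458 regions in 649 intervals, 20 missing from both knockouts and 39.83%. When a knockout peak had to cover 50% of the region, 96.37% were in E12KO, 92.42% in E47KO and 90.65% in both. Intervals bounded by genes of any class held at most 15 regions. The share beside a listed gene was 17.69% by the annotated nearest gene and 29.23% with 1 region per interval.

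Leaving out each wt list in turn gave 861 to 2111 regions in 499 to 986 intervals, with at most 11 to 23 in 1 interval. The shares were 96.87 to 99.07% in E12KO, 94.14 to 97.79% in E47KO and 93.02 to 97.44% in both. Regions missing from E12KO alone numbered 3 to 21, from E47KO alone 14 to 71 and from both 5 to 20, and 35.7 to 40.72% had a listed gene at an edge. The count between Zfp608 and Gramd3 ran from 11 to 23 and that between Sox2 and Atp11b from 5 to 13. The cause of these shifts was not tested, beyond the fewer peaks that stricter rules leave. No paired analysis was possible because each knockout has 1 library and the replicate numbers belong to the wt samples alone. The planned search for E-boxes in the regions was not run, since no mm9 genome was used. Depth is unknown, so a missing peak is not shown to be absent binding.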

Other observations

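A set of 37 far regions had a miRNA gene as the annotated nearest gene, 23 miRNA genes in all, and 20 of these had a mature sequence in RefSeq (GRCm38.p6). Of the 37, 35 had a peak in E12KO, 35 in E47KO, 12 in wt replicate 1 and 37 in wt replicate 2. The mature sequences of 6 of them are shown for the miRNAs known from neural or blood cells, with the seed (bases 2 to 8) in capitals, chosen after their values were seen.
mmu-miR-29a-3p: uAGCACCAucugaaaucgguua
mmu-miR-29b-3p: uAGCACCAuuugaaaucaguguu
mmu-miR-30a-5p: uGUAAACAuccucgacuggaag
mmu-miR-181a-5p: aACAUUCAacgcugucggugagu
mmu-miR-125b-5p: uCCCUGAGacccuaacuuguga
mmu-miR-128-3p: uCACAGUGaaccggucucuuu
miR-29a-3p and miR-29b-3p share the seed AGCACCA, and their genes were nearest to 3 regions on chromosome 6, all listed in both knockouts. The strongest of the 3 lay 95.4 kb from Mir29b-1 (19.6-fold, chr6:31108449-31109544, mm9). Mir181a-1 had 5 regions within 349 kb, all in both knockouts and in wt replicate 2, and 1 of them in wt replicate 1. Mir30a, Mir125b-1 and Mir128-2 had 1 region each, in both knockouts and in wt replicates 2 and 3.

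Chromosomes differed in the share of listed E2A peaks that were far intergenic regions, and their gene density was not taken into account. Far regions were 32.9% of shared wt replicate 3 peaks on the X chromosome, 32.7% on chromosome 13 and 27.0% on chromosome 18, against 9.59% on chromosome 19, 11.9% on chromosome 5 and 12.3% on chromosome 11. Of all distal intergenic peaks beyond 50 kb, 684 of 4303 in E12KO (15.9%) and 526 of 3888 in E47KO (13.5%) overlapped no wt peak. The share over all peaks of the 2 knockout lists was not computed, so these values are not shown to be particular to far peaks. Within wt replicate 3, 1971 of 4228 peaks beyond 50 kb (46.6%) overlapped neither of the other wt lists. Of all 24194 wt replicate 3 peaks, 12298 overlapped at least 1 of them.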
